A study of Drosophila melanogaster with 4 samples.

Results

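Teh1, Ca-alpha1D and stj are 3 fly genes that code for subunits of voltage-gated sodium and calcium channels. They were selected on their mean log2 ratios in earlier results of these arrays, by name, from the 6793 genes that the platform annotation names on the array, where they hold 8 of the 27648 spots. The arrays compared transcript abundance in heads of adult male Oregon-R wild type flies (Drosophila melanogaster), labelled unmated, fed for 3 days on normal food, or on food mixed with levetiracetam at 5 mg/ml. The drug is an antiepileptic, and its known binding site in mammals is the synaptic vesicle protein SV2A. All flies had first spent 7 days on normal food, in vials of 30. RNA came from 8 pools of heads, and each of 4 two-colour cDNA arrays carried 1 treated and 1 control pool from a parallel set of vials, so the arrays are 4 biological replicates. The treated pool carried the dye Cy5 in replicates 1 and 2 and the dye Cy3 on the swapped arrays, replicates 3 and 4. The sample labels give an age of 3 to 4 days, while the series' design text gives 7 to 10 days at the start of feeding. The growth protocols give 2 to 3 days of culture after collection for the control flies of replicate 1 and the treated flies of replicate 4, and 10 to 11 days for all other pools. The part of age in the results was not tested.

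Voltage-gated sodium channels carry the rising phase of the action potential, and in the fly a single gene, para, codes for their main pore-forming subunit. Teh1 (Dmel_CG12806) is a homologue of tipE and belongs to a family of small membrane proteins that join the Para channel and alter its current. Voltage-gated calcium channels turn depolarisation into calcium entry, which drives transmitter release at synapses and contraction in muscle. Ca-alpha1D (Dmel_CG4894) codes for the pore-forming subunit of the fly's L-type calcium channel, which is used in muscle and in neurons. The gene stj (straightjacket, Dmel_CG12295) codes for an alpha2delta subunit, an extracellular auxiliary protein that helps bring the Cacophony calcium channel to presynaptic active zones. RefSeq lists 2 transcripts for Teh1, 10 for Ca-alpha1D and 3 for stj, and a cDNA spot does not tell which of them it measured.

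A value here is the log2 ratio of levetiracetam over normal food on 1 array. The deposited ratio was read as Cy5 over Cy3, since Cy5 is the label of the first channel throughout, and the swapped arrays had their sign turned. This direction is likely, not stated, so each gene is also given with the values as deposited, which would be right if the swapped arrays had been turned before deposit. Values of the 2 neighbouring spots of a feature were averaged per array, then the features of a gene. The 3 genes were chosen by their log2 ratios in this same contrast, so these ratios are described without a test. In the fit over all 2259 genes with a value on at least 3 arrays, 0 genes (0%) were called higher and 0 (0%) lower at adjusted p 0.05 (limma, two-sided, Benjamini-Hochberg). At an unadjusted p under 0.05 limma gave 44 genes higher (1.95%) and 16 lower (0.708%). As deposited 0 genes (0%) were again called either way, and an unadjusted p under 0.05 was reached by 8 higher (0.354%) and 430 lower (19%). The deposited medians over all spots were -0.147, -0.161, -0.079 and -0.305 in replicates 1 to 4, and that fit left them in. With each deposited array centred on its median, a setting chosen after seeing the data, limma gave 104 higher and 156 lower at that unadjusted p. In bulk heads, fewer cells of a type and less RNA per cell cannot be told apart.

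Spots of the 3 genes mostly passed the authors' intensity filters, without which the genes could not have been chosen. Teh1 and Ca-alpha1D each had values for both their spots on all 4 arrays. The gene stj has 2 features of 2 spots each. All 4 of its spots had a value in replicates 1 and 2, none in replicate 3, and only the 2 spots of its first feature in replicate 4. Together the 3 genes had 26 of 32 possible values, or 81.3%, against 39.2% over all 15116 spots with 1 gene symbol. The arrays themselves differed in this respect, with values for 29.1%, 45.6%, 30.0% and 35.5% of all spots in replicates 1 to 4. The median over all spots also differed, at -0.15, -0.16, 0.079 and 0.31 in the likely direction. The offset was thus negative in replicates 1 and 2 and largest in size in replicate 4, where it was positive.

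Teh1, the sodium channel's auxiliary subunit, was above 0 on all 4 arrays in the likely direction. Its log2 ratios were 0.14, 0.0465, 0.61 and 1.25 in replicates 1 to 4. Replicates 1 and 2 lay near 0, and the 2 arrays with levetiracetam RNA in Cy3 lay above them. The medians over all spots split likewise, at -0.147 and -0.161 in replicates 1 and 2 against 0.079 and 0.305. How many genes share this split was not counted. The mean was 0.51 ± 0.55 (SD, n = 4), or 1.43-fold, and 0.26 without replicate 4, the highest array. Of all genes measured on 4 arrays, 6.37% were above 0 on each of them. Over the pairs with the same dye the mean was 0.093 with levetiracetam in Cy5 and 0.93 with it in Cy3. As deposited the values were 0.14, 0.0465, -0.61 and -1.25, with a mean of -0.42 ± 0.65, so the sign of the Teh1 mean rests on the direction of the swapped arrays. Its spread over arrays was larger than that of 80.5% of the tested genes in the likely direction and of 93.9% as deposited.

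Ca-alpha1D, the L-type pore subunit, was below 0 on 3 of 4 arrays. Its log2 ratios were -0.63, -0.36, -0.35 and 0.22 in replicates 1 to 4. Replicate 4 was the only array above 0, and it is also the array with the highest overall median. The mean was -0.28 ± 0.36 (SD, n = 4), or 1.21-fold lower. It was -0.16 without replicate 1 and -0.45 without replicate 4. Of all genes measured on 4 arrays, 20.5% were below 0 on 3 of them. The mean with levetiracetam in Cy5 was -0.49, and with it in Cy3 it was -0.067. As deposited the values in replicates 3 and 4 were 0.35 and -0.22 and the mean was -0.21 ± 0.41, again with 3 arrays below 0, where 35.4% of genes were.

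The alpha2delta gene stj had values on 3 arrays. Its log2 ratios were -0.44, -0.40 and 0.12 in replicates 1, 2 and 4. As with Ca-alpha1D, replicate 4 lay above 0 and the others below it. The mean was -0.24 ± 0.32 (SD, n = 3), or 1.18-fold lower. It was -0.14 without replicate 1, -0.16 without replicate 2 and -0.42 without replicate 4, and -0.15 with both dye orientations weighted equally. Among the 187 genes with values in the same 3 arrays, 52.9% were likewise below 0 on 2 of them. The 2 features of stj differed in size. The first stood at -0.55, -0.72 and 0.12 in replicates 1, 2 and 4, and the second at -0.33 and -0.085 in replicates 1 and 2. Where both were measured, both were below 0. As deposited stj was below 0 on all 3 arrays, with a mean of -0.32 ± 0.17, where 41.2% of the 187 genes were too.

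**Figure D1:**
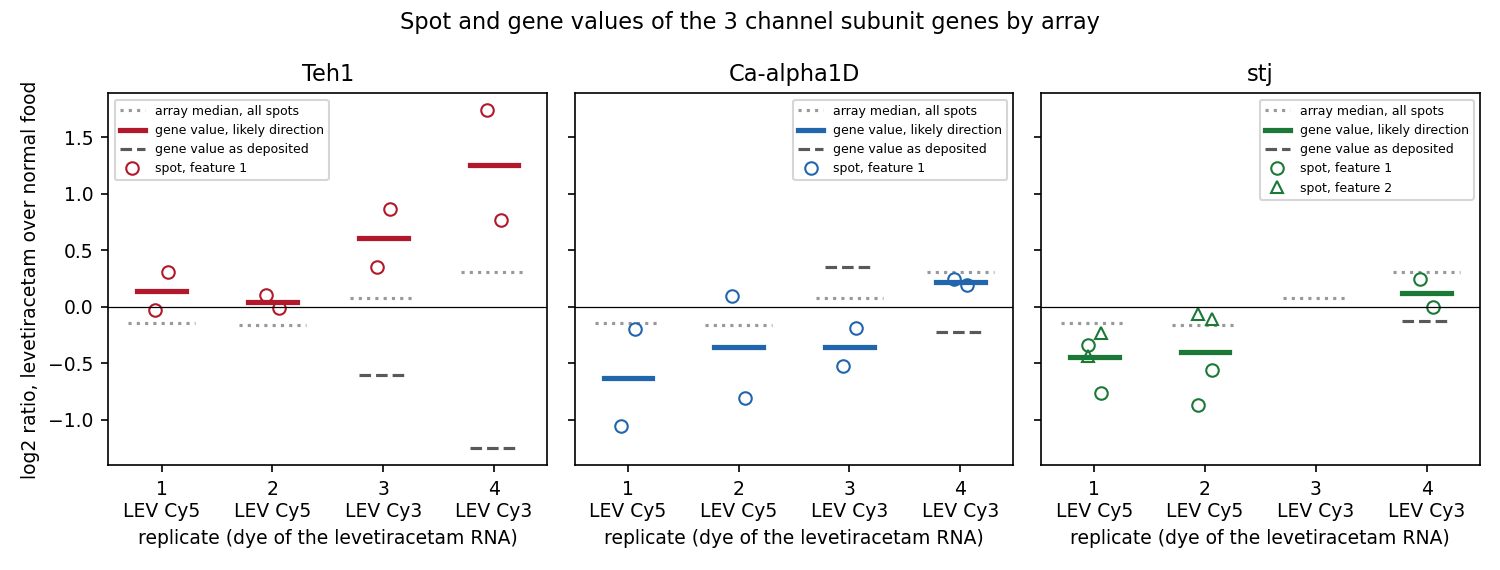
Log2 ratio of levetiracetam over normal food (vertical axis) for Teh1, Ca-alpha1D and stj on each array (LEV, levetiracetam). Open symbols are spots and coloured bars the gene's value, both in the likely direction. Dashed bars are the value as deposited where it differs. Dotted bars are the median of all spots of the array, in the likely direction only. In the likely direction Teh1 lies above the array median on all 4 arrays, and Ca-alpha1D and stj lie below it on each array with a value. The deposited values of the swapped arrays lie on the other side of the median of deposited values, which is not drawn.

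Taking out the arrays' own offsets brought the values of each gene closer together in the likely direction. Set against the median of its array, Teh1 stood at 0.29, 0.21, 0.53 and 0.95 in replicates 1 to 4, and its mean was 0.49 ± 0.33 (SD, n = 4). Ca-alpha1D stood at -0.48, -0.20, -0.43 and -0.085, all below the median of the array, with a mean of -0.30 ± 0.19. The values of stj were -0.30, -0.24 and -0.18, with a mean of -0.24 ± 0.058 (SD, n = 3). After centring, 5.76% of genes were above 0 on all 4 arrays and 4.29% below, and 13.9% of the 187 genes with the arrays of stj were below 0 on all 3. With the values as deposited and centred, 12.7% of genes were above 0 on all 4 arrays and 7.84% below, larger shares than in the likely direction. Of the 187 genes, 15% were then below 0 on all 3 arrays. The 3 channel genes lay on 1 side of the median in replicates 1 and 2 and on the other side on the swapped arrays with a value. That follows from their place in the likely direction, since only the sign of the swapped arrays differs. Their means were then -0.25 ± 0.60 for Teh1, -0.040 ± 0.39 for Ca-alpha1D and -0.12 ± 0.26 for stj. In that reading the spread of stj was wider than the 0.17 found without centring.

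The difference between the log2 ratios of 2 genes on one array does not depend on the offset of that array. Teh1 minus Ca-alpha1D was 0.77, 0.40, 0.96 and 1.03 in replicates 1 to 4, with a mean of 0.79 ± 0.28 (SD, n = 4). The sodium channel's auxiliary subunit therefore stood above the L-type pore subunit on each array in the likely direction. Teh1 minus stj was 0.58, 0.45 and 1.13 in replicates 1, 2 and 4, with a mean of 0.72 ± 0.36 (SD, n = 3). The 2 calcium channel genes lay close together, with stj minus Ca-alpha1D at 0.18, -0.042 and -0.096 and a mean of 0.015 ± 0.15. As deposited, Teh1 minus Ca-alpha1D had a mean of -0.21 ± 0.93 and Teh1 minus stj one of -0.034 ± 0.95, since their signs turned on the swapped arrays. These genes were chosen with their ratios known, and no test of the differences is given.

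**Figure D2:**
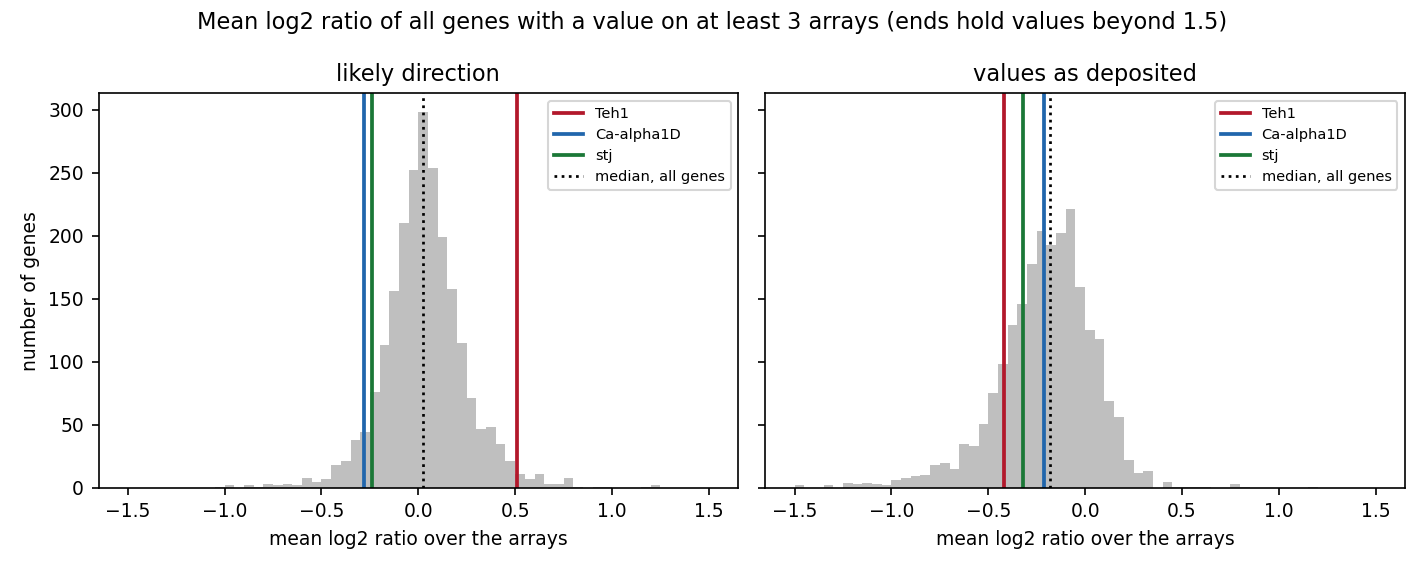
Number of genes (vertical axis) by mean log2 ratio over the arrays (horizontal axis) for the 2259 genes with a value on at least 3 arrays, in the likely direction (left) and with the values as deposited (right). Coloured lines mark the 3 genes and the dotted line the median of all genes. Teh1 changes side between the panels, from 0.51 to -0.42, while Ca-alpha1D and stj stay below 0 in both. In the right panel only 19.0% of all genes lie above 0, and the median of all genes is -0.18. Ca-alpha1D lies 0.030 below that median there, and stj 0.14 below it.

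Among all tested genes the mean of Teh1 was high and those of the calcium channel genes were low in the likely direction. The genes were chosen on such means, so their ranks follow at least in part from that choice. The median over the 2259 genes was 0.027, and 57.3% had a mean above 0. A mean above that of Teh1 was found for 46 genes, or 2.04%. A mean below that of Ca-alpha1D was found for 128 genes, or 5.67%, and below that of stj for 171, or 7.57%. As deposited the median of all genes was -0.18 and 19.0% lay above 0. Ca-alpha1D then lay 0.030 below that median, with 43.7% of genes further down, and stj 0.14 below it, with 26.3% further down. For Teh1 16.2% lay further down in that reading.

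Spots printed side by side show how exactly an array measured each gene. The 2 spots of Ca-alpha1D stood at -1.06 and -0.20 in replicate 1, at 0.096 and -0.81 in replicate 2, at -0.52 and -0.18 in replicate 3 and at 0.25 and 0.19 in replicate 4. Their difference of 0.86 in replicate 1 was larger than in 90.8% of all pairs on that array, and that of 0.91 in replicate 2 larger than in 91.8%. In replicate 2 the spots of this gene disagreed in sign. The 2 spots of Teh1 stood at -0.028 and 0.31 in replicate 1, at 0.11 and -0.013 in replicate 2, at 0.35 and 0.86 in replicate 3 and at 1.74 and 0.77 in replicate 4. In replicates 1 and 2 the spots of Teh1 disagreed in sign, so its place above 0 there is that of their average. On the swapped arrays both spots of Teh1 were above 0 in the likely direction. Their difference in replicate 4, 0.97, was larger than in 87.3% of pairs. The neighbouring spots of stj differed by at most 0.43, and in its second feature by 0.20 and 0.048. Over all pairs the median difference lay between 0.23 and 0.29 on the 4 arrays.

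**Figure D3:**
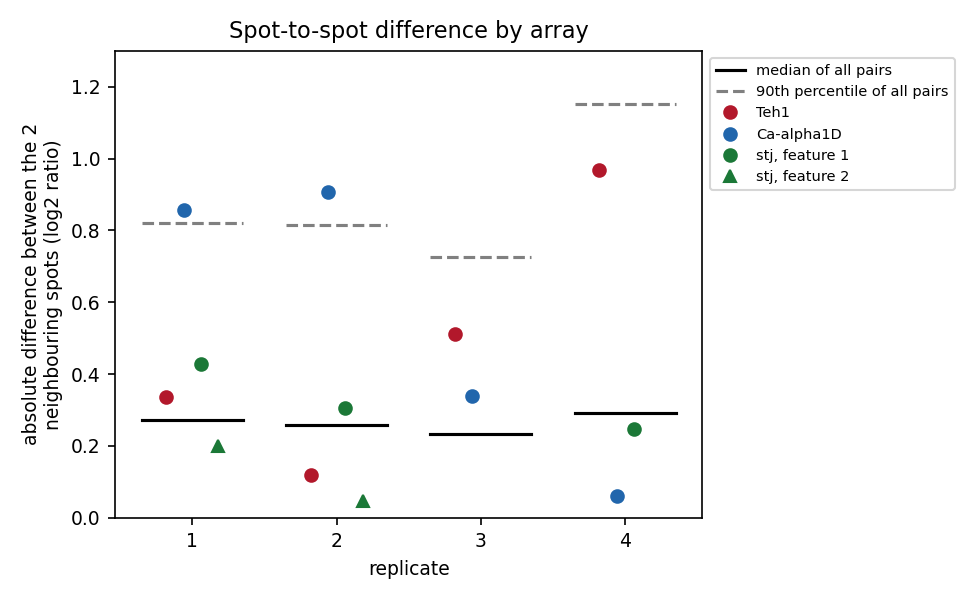
Absolute difference in log2 ratio between the 2 neighbouring spots of a feature (vertical axis) on each array (horizontal axis). Points are the features of the 3 genes, solid bars the median of all pairs of the array and dashed bars the 90th percentile. Ca-alpha1D lies above the 90th percentile in replicates 1 and 2, at 0.86 and 0.91, and every other point lies below it.

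Few other genes of these channel families could be read. Of 7 listed sodium channel genes, the probe table names 2 on the array, Teh1 and tipE, and tipE had no value on any array. Spots for para are not named there and were not analysed here. Of 7 listed calcium channel genes 3 are named, and Ca-beta, the cytoplasmic beta subunit, had a value in replicate 2 alone, at -0.16. Spots for cac, the presynaptic pore subunit that stj serves, are not named either. Including the potassium, chloride and other cation channels, 28 channel genes were named and 12 of them tested, or 42.9%, against 33.3% of all named genes. The 12 include Teh1, Ca-alpha1D and stj, which could not have been chosen without values, so the first share is raised by that choice. Of the 9 tested channel genes other than Teh1, Ca-alpha1D and stj, 0 passed adjusted p 0.05 in limma and 0 had an unadjusted p under 0.05. Of these 9 genes 5 had a mean above 0 in the likely direction, and their median was 0.019 beside 0.027 for all genes. As deposited 2 of the 9 had a mean above 0, and their median was -0.082 beside -0.18.

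Potassium channels repolarise neurons after each action potential, and 3 of their genes were tested, with a median of -0.017 in the likely direction and -0.21 as deposited. Sh, the Shaker channel, stood at -0.28, -0.26, -0.13 and 0.61 in replicates 1 to 4, with a mean of -0.017 ± 0.42 (SD, n = 4), and at -0.23 without replicate 4 or -0.25 as deposited. Irk1, an inward rectifier, had a mean of 0.019 on 3 arrays, or -0.22 without replicate 4 and -0.21 as deposited. The value of qvr, which codes for the Shaker regulator also known as sleepless, was -0.052 ± 0.22, or 0.042 without replicate 2, -0.12 without replicate 3 and -0.082 as deposited. Among the other cation and chloride channels, 6 were tested, and 4 had a mean above 0 in the likely direction, or 2 as deposited. The gene trpl, which codes for a light-activated channel of photoreceptors, stood at 0.22 ± 0.47, or -0.032 as deposited. Ih, a channel opened by hyperpolarisation, stood at -0.20 ± 0.84, or -0.47 as deposited. Replicate 2 of Ih stood at -1.45 and the mean of the other arrays at 0.22, and trpl was 0.028 without replicate 4. The chloride channel genes Best2 and ClC-c stood at 0.14 and 0.068 on 3 arrays each, and without replicate 4 these were -0.039 and 0.19, while ClC-c was -0.060 without replicate 2. As deposited they stood at -0.19 and 0.15. None of these values passed adjusted p 0.05 in limma.

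**Figure D4:**
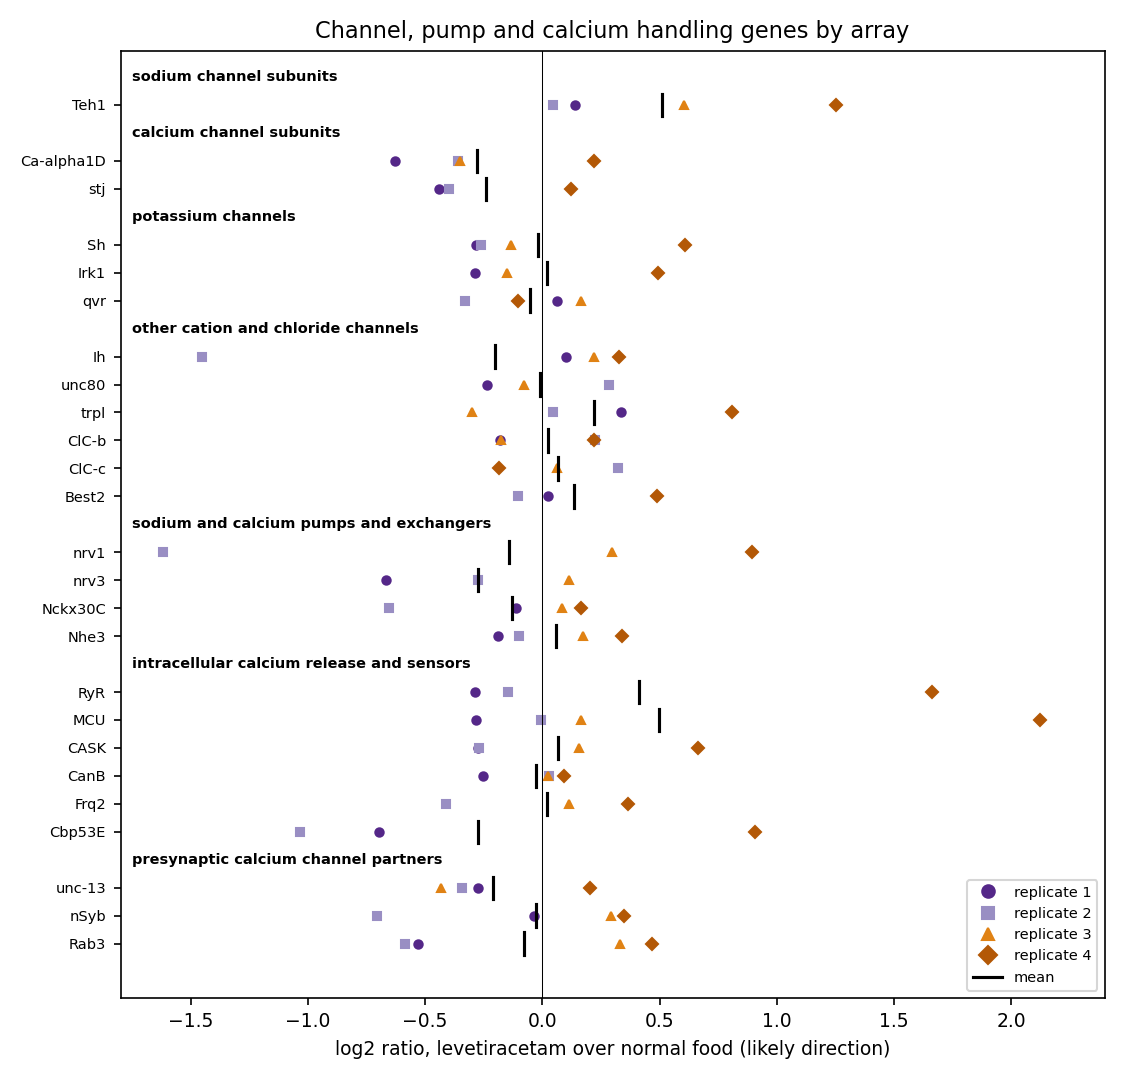
Log2 ratio of treated over control heads, in the likely direction (horizontal axis), for the tested genes of the 7 lists of channels, pumps, calcium handling genes and presynaptic partners. Symbols are the 4 arrays and black ticks the means. Teh1 is the 1 gene shown with all 4 arrays above 0, and replicate 4 is the highest array for most genes.

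The pumps that restore sodium and calcium gradients, and the proteins that handle or sense calcium inside the cell, had 10 tested genes on the 2 lists. In limma 0 of the 10 passed. Nervana genes code for beta subunits of the sodium pump. Of these, nrv3 stood at -0.28 and nrv1 at -0.14 on 3 arrays each, and nrv3 ran from -0.47 without replicate 3 to -0.080 without replicate 1, and nrv1 from -0.66 without replicate 4 to 0.60 without replicate 2. The exchanger genes Nckx30C and Nhe3 had means of -0.13 ± 0.37 and 0.056 ± 0.24 (SD, n = 4). Of the intracellular calcium genes, RyR, the ryanodine receptor of the endoplasmic reticulum, had a mean of 0.41 and MCU, the mitochondrial calcium uniporter, one of 0.50. In replicate 4 they stood at 1.66 and 2.12, and without that array their means were -0.22 and -0.042. As deposited RyR and MCU stood at -0.70 and -0.64. Cbp53E, which codes for a calcium-buffering protein of neurons, stood at -0.70, -1.03 and 0.91 in replicates 1, 2 and 4, with a mean of -0.27. The scaffold gene CASK had a mean of 0.069 ± 0.45. Several of these means changed sign with 1 array left out. Without replicate 2 those of Nckx30C and Cbp53E were 0.046 and 0.10, and without replicate 4 those of Nhe3 and CASK were -0.038 and -0.13. Medians were -0.14 for the 4 pump and exchanger genes and 0.045 for the 6 intracellular calcium genes, or -0.30 and -0.49 as deposited.

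Presynaptic proteins that work beside the calcium channel had 3 tested genes, all with means below 0. The priming factor gene unc-13 stood at -0.27, -0.34, -0.43 and 0.20 in replicates 1 to 4, with a mean of -0.21 ± 0.28 (SD, n = 4), and -0.35 without replicate 4. Its signs over the arrays were those of Ca-alpha1D. The means of Rab3, a vesicle GTPase, and nSyb, the neuronal vesicle SNARE, were -0.079 ± 0.56 and -0.026 ± 0.48, or 0.090 and 0.20 without replicate 2. The median of the 3 genes was -0.079, or -0.35 as deposited, and 0 of 3 passed in limma.

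Genes with ratios most like those of the 2 genes on 4 arrays were found by the root mean square difference over the arrays, which does not depend on the direction of the ratio. Nearest to Teh1 among 1631 genes were Swim, Cpsf6 and Sesn, with differences of 0.12, 0.14 and 0.15 where the median gene differed by 0.64. Like Teh1 they were high in replicate 4, between 1.15 and 1.17, which follows from the way they were picked. In replicate 2 they were below 0, at -0.0965, -0.1035 and -0.11375, where Teh1 stood at 0.0465. Nearest to Ca-alpha1D were CG3604, CG13124 and Haspin, with differences of 0.11, 0.11 and 0.12 where the median was 0.44. Picked in the same way, these genes too were above 0 in replicate 4 and below it on the other arrays. All genes share the offset of each array, and 4 points are few.

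Markers of head tissue and of other cell types give what check these ratios allow. The neuronal gene nSyb and the photoreceptor genes trpl, Arr1 and inaD had values on all 4 arrays, and no spot is named for elav or ninaE. For the photoreceptor markers, 3 of 13 tested, the median was 0.22, or -0.0245 as deposited. Muscle, where the L-type channel is also used, had 4 of 12 markers tested with a median of 0.0089, and medians of -0.016, -0.027, 0.15 and -0.0045 in replicates 1 to 4. Fat body markers, 5 of 11 tested, had a median of 0.0505, and glia markers, 2 of 8 tested, one of -0.16, or -0.28 and -0.19 as deposited. Single markers spread more widely than these medians. The fat body lipase gene bmm stood at 0.32, 0.0415, 0.44 and 1.03 in replicates 1 to 4, above 0 on all 4 arrays like Teh1. The fat body marker Yp2 was below 0 on all 4, at -0.13, -0.29, -0.33 and -0.19, with a mean of -0.23, or 0.022 as deposited. Of all genes measured on 4 arrays, 1.78% were below 0 on each in the likely direction. The lipoprotein gene apolpp had a mean of -0.33. Apoltp, a lipid transfer particle apolipoprotein of fat body, had a mean of 0.76 on 3 arrays. The muscle gene Zasp66 had a mean of 0.65, with 2.43 in replicate 3, and 0.054 without that array. As deposited bmm, apolpp, Apoltp and Zasp66 had means of -0.28, -0.30, -0.53 and -0.76. The part of cell makeup in the values of the 3 channel genes was not tested.

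**Figure D5:**
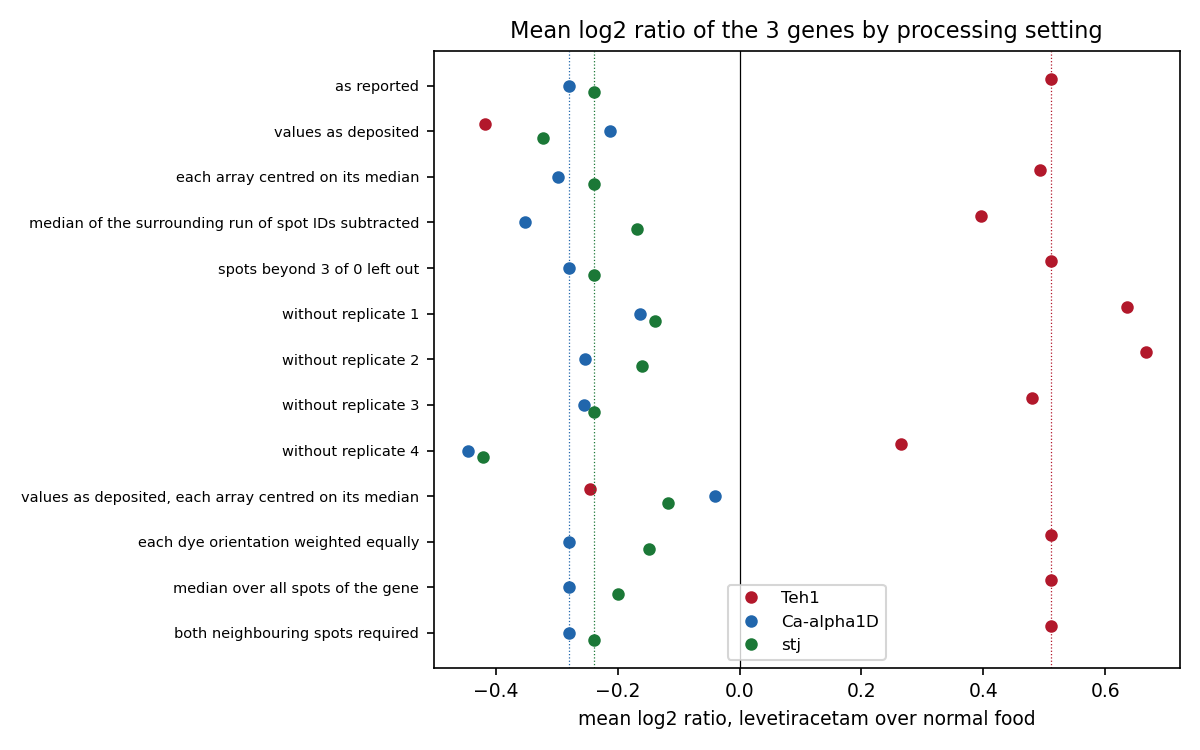
Mean log2 ratio over the arrays (horizontal axis) of Teh1, Ca-alpha1D and stj under each processing setting (vertical axis). Dotted lines mark the values as reported. Settings that could not change a gene's mean are drawn too. Teh1 falls below 0 in both settings that keep the deposited sign, at -0.42 and -0.25, and the calcium channel genes stay below 0 in every setting shown, between -0.45 and -0.040.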

How the data were processed

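Per the labels' protocols, slides were scanned on a GenePix 4000A and quantified in GenePix Pro 6.0, and the authors normalized the ratios in Acuity 4.0. Spots were kept with under 3% saturated pixels, flags of at least 0 and a signal-to-noise value of 2 or more. The authors' filters also name an intensity minimum of 100 and 2 times background. The deposited values are log2 ratios, a scale read from the values, with none for spots that failed. Centring and genome build are not given in the sources used here. No positions are printed. The study's one-class SAM was not rerun. The 15116 spots with 1 gene symbol kept the platform's names, and 14894 matched a gene ID of the RefSeq table (Release 6, names only). Genes with at least 3 values were fitted with limma 3.58.1 (R 4.3.3, lmFit and eBayes, mean against 0), tested on simulated data. Members and lists were chosen with earlier results of these data known. Named genes are the members, up to 4 tested genes per list with the largest mean in size, and the 3 nearest in ratio to each member with 4 values. The number of arrays, 4, limits the precision. Alternatives were the deposited sign, centring, a local median, leaving out extreme spots or an array, dye orientation, the filter, features in place of genes, and the averaging.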

Additional observations from a re-analysis of the deposited data

Results flagged for a closer look

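Of 13 sets of 4 array values tested for a single array far from the other 3, 2 were marked, and chance alone marks about 1 in 20. The Shaker gene Sh had 0.61 in replicate 4, while its remaining values lay between -0.28 and -0.13. Array offsets were left in for this marking, and the rate of 1 in 20 makes no allowance for them. Replicate 4 had the highest median over all spots, 0.305, so the mark for Sh may partly reflect that array. Whether Sh would be marked after centring was not tested. For Ih, the hyperpolarisation-activated channel, replicate 2 stood at -1.45, against 0.099 to 0.33. Neither Teh1 nor Ca-alpha1D was marked, and stj, with 3 values, was not tested.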

How the results depend on the processing

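The mean of Teh1 reversed to -0.42 with the values as deposited, and to -0.25 with these also centred, a setting chosen after seeing the data. It stayed above 0 in the other 10 alternatives, and Ca-alpha1D and stj stayed below 0 in all 12. Their lowest in size were -0.040 and -0.12 with the deposited values centred. Some of these settings could not change a mean. Teh1 and Ca-alpha1D have 1 feature each, with both spots on all 4 arrays. Equal dye weighting, a median over spots, requiring both spots and leaving out extreme spots left them at 0.51 and -0.28. For stj, without a value in replicate 3, omitting that array, requiring both spots or leaving out extreme spots changed nothing. With 1 array left out the means ran from 0.26 to 0.67 for Teh1, from -0.45 to -0.16 for Ca-alpha1D and from -0.42 to -0.14 for stj. In limma 0 genes passed, and 0 in each fit with an array left out. With arrays centred and with a local median 1 passed (dpr16 in both), and 4 with dye orientation as a term (dpr16, Prosalpha7 and dnk higher, Mst77F lower, named after their values were seen). None of these is a channel gene. At an unadjusted p under 0.05 limma gave 60 genes, and 40 to 108 with 1 array left out. There were 438 as deposited, 98 with centring, 116 with the local median, 177 with dye orientation, 105 with features in place of genes and 260 with deposited values centred. Genes above 0 on all 4 arrays numbered 104, 34 as deposited and 208 with these centred, and those below 0 numbered 29, 431 as deposited, 70 with centring, 85 with the local median and 128 with deposited values centred. With an array left out, when 3 arrays are asked for in place of 4, the counts were 130 to 284 and 46 to 249. Each array's ratio pairs 1 treated with 1 control pool, so the fit of the ratios against 0 already uses that pairing. Intensities were not used here, so how far each spot lay above background cannot be given.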

Other observations

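Some channel genes had a value on 1 or 2 arrays and entered no test. In the likely direction Ork1, a two-pore potassium channel gene, stood at -0.28 in replicate 2 and 2.12 in replicate 4, and Shab, a delayed rectifier, at -0.68 and 1.06 on the same arrays. The gene sei, which codes for a potassium channel of the ERG family, stood at -0.43 and 0.23 there. The photoreceptor channel gene trp stood at 0.059 and 0.71 in replicates 3 and 4.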
